A study of Mus musculus with 12 samples.

Results

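A set of 10 genes of the TNF and NF-κB pathway were followed in mouse kidney by bulk RNA sequencing: *Tnf*, *Tnfrsf1a*, *Tnfrsf1b*, *Nfkbia*, *Nfkbiz*, *Nfkb1*, *Nfkb2*, *Relb*, *Tnfaip3* and *Birc3*. They were chosen by name, and their rows were read from a count table of 55487 genes. The tissue was kidney cortex from mice of 6 to 8 weeks on a mixed C57BL/6 background, in 12 libraries and 4 groups of 3. Ctrl libraries are labelled wild type and sham, and the study's methods describe the control mice as ALR flox/flox without Cre. PT-KO libraries are labelled ALR knockdown without injury, and the methods describe ALR flox/flox mice that carry Ggt1-Cre, which deletes the floxed part of the gene in proximal tubule cells and leaves it in cells without Cre. Ctrl+I/R and PT-KO+I/R are the same genotypes after 22 min of bilateral renal ischemia and 24 h of reperfusion. ALR (augmenter of liver regeneration) is the product of *Gfer*. PT-KO and PT-KO+I/R below name the libraries as labelled, and nothing in the labels says whether each library is from a different mouse, so p-values measure the spread between these libraries.

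TNF is a cytokine that binds a pair of receptors on the cell surface. From the first receptor, adaptor and ubiquitin-adding proteins activate the IκB kinase (IKK), which marks the inhibitor IκB for destruction and frees NF-κB dimers of the Rel family to enter the nucleus and switch on genes. Many of these genes encode parts of the pathway itself, so that their transcript levels are often used as a readout of NF-κB activity, and in the kidney the pathway is known for its part in inflammation after injury.

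Library totals ranged from 12165089 to 23123693 counts, and 20416 to 22210 genes had a count in a library. *Gfer*, the targeted gene, was at 12.7, 11.4 and 14.4 CPM (counts scaled to library size) in Ctrl and at 9.96, 17.1 and 15.0 in PT-KO, and the log2 fold change of PT-KO against Ctrl was 0.13 ± 0.20 (SE, adjusted p = 0.761). After I/R the Ctrl+I/R libraries had 15.3, 20.0 and 17.6 and the PT-KO+I/R libraries 21.6, 22.8 and 21.6. The gene count covers exons outside the floxed part as well as cells without Cre, so it does not check the genotype labels. Ctrl 1 and Ctrl 2 held 22402 and 19755 counts of *Xist* and none of *Ddx3y*, *Uty*, *Kdm5d* and *Eif2s3y*, whereas the other 10 libraries held 1 to 11 counts of *Xist* and at least 206 of each Y gene. Each comparison with Ctrl therefore also compares 2 libraries of one sex with libraries of the other, and it was repeated in a fit without those 2 libraries. Ctrl 3 takes its group from its column name only, and its number matches no sample title of that group. Scatter between libraries, as chi-square per gene relative to counting error, was 7.85 for Ctrl 1 and Ctrl 2 and 57.1 and 54.1 for Ctrl 3 with each of them, while it was 35.6 to 62.7 among the Ctrl+I/R libraries and 9.30 to 19.7 within each knockout group. Ctrl+I/R 4 was the least injured of its group by *Havcr1* (KIM-1), at 381 CPM against 785 and 2105, and was the lowest of its group for 9 of the 10 pathway genes.

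The regulatory sequence just before the start of 4 genes is shown: *Nfkbia*, *Birc3* and *Tnfrsf1a* carried the differences between the injured groups, and *Nfkb2* held the most motif matches. Each is the 250 bases upstream of the gene start given by RefSeq for GRCm38.p6, 5′ to 3′ on the strand of the gene, and capitals mark matches to the κB consensus, the motif that NF-κB dimers bind, on either strand. The windows are chr12:55492648-55492897 (minus strand) for *Nfkbia*, chr19:46304487-46304736 (plus) for the first start of *Nfkb2*, chr9:7873171-7873420 (minus) for *Birc3* and chr6:125349473-125349722 (plus) for *Tnfrsf1a*. The gene positions given below come from another annotation, whose starts differ. The windows of *Tnfrsf1a* and *Nfkb2* lie inside those positions and that of *Birc3* overlaps them, so sequence before those other starts was not all searched.
Nfkbia: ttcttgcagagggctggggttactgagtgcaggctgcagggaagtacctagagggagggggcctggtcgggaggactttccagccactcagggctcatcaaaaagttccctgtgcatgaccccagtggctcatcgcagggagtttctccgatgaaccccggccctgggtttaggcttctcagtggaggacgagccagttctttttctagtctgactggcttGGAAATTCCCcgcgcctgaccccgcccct
Nfkb2: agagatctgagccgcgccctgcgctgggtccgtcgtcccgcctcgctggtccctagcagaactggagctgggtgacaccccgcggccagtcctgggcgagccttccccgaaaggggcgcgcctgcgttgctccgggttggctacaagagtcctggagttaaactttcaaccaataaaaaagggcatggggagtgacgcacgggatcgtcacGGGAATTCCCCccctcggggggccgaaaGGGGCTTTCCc
Birc3: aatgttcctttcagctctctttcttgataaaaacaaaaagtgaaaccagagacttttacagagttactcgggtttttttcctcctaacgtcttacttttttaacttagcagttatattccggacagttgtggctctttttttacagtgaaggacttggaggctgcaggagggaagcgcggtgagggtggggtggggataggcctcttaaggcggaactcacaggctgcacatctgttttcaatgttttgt
Tnfrsf1a: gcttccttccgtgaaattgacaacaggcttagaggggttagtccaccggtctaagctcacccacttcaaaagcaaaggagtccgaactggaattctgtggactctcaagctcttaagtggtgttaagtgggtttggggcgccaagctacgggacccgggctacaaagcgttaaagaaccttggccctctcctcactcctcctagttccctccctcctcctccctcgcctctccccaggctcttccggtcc
Of 32851 promoter windows of the same length, 7.25% held a match. The *Nfkbia* window held 1, GGAAATTCCC, which starts 29 bases before the gene start. The *Nfkb2* window held 3, which start 39, 38 and 11 bases before it, and the first 2 overlap, and the windows of its other starts held 1 match each. The windows of *Birc3*, *Tnfrsf1a*, *Tnf* and *Tnfrsf1b* held none, and *Tnfaip3* held 2 in the first of its windows and none in the other. Windows for *Nfkbiz*, *Nfkb1* and *Relb* were not analysed here. A match is a string of letters and not a measured binding site.

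*Tnf* (chr17:35199381-35202007, minus strand), the ligand, was the scarcest of the 10 transcripts in every group. Its counts were 6, 4 and 3 in Ctrl, 0, 1 and 0 in PT-KO, 17, 25 and 11 in Ctrl+I/R, then 1, 20 and 5 in PT-KO+I/R. The Ctrl+I/R libraries were all above the Ctrl libraries, and the PT-KO libraries were all below them. The fitted log2 fold change after I/R in Ctrl was 1.92 ± 0.45 (SE). *Tnf* passed the filter on low counts only through its Ctrl+I/R libraries, which are the high ones, so this value is given as a description and the gene is left out of the counts of genes that rose. With so few counts *Tnf* was not tested in PT-KO+I/R against PT-KO or in PT-KO against Ctrl. Between the injured groups the counts overlapped. *Tnf* passed the filter through Ctrl+I/R there too, so its fitted log2 fold change for the knockout, -0.94 ± 0.63 (SE), is a description as well. It ran from -2.05 to -0.54 when 1 library was left out. In bulk tissue, fewer cells of a type and less RNA per cell cannot be told apart, for this gene and those that follow.

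*Tnfrsf1a* (chr6:125349362-125362484, plus strand) encodes TNFR1, the receptor with a death domain that most cell types carry. It stood at 58.2, 49.2 and 43.8 CPM in Ctrl and at 48.3, 42.4 and 47.1 in PT-KO. After I/R the Ctrl+I/R libraries stood at 104, 139 and 71.6 and the PT-KO+I/R libraries at 170, 166 and 154. All injured libraries were above all uninjured ones, and the PT-KO+I/R libraries lay close together and above every Ctrl+I/R library. It rose 2.09-fold after I/R in Ctrl (log2 1.06 ± 0.23 SE, adjusted p = 0.0248 by edgeR's quasi-likelihood test) and 3.53-fold in PT-KO (log2 1.82 ± 0.09, adjusted p = 1.51e-07). PT-KO+I/R was 1.55-fold higher than Ctrl+I/R (log2 0.63 ± 0.21, adjusted p = 0.0373). That last call stood only in the fit without Ctrl+I/R 2, of the 6 fits that each left out 1 library, and with library totals in place of TMM factors the log2 fold change was 0.42 (adjusted p = 0.153).

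*Tnfrsf1b* (chr4:145213463-145246870, minus strand) encodes TNFR2, the receptor found mainly on leukocytes and endothelium. It stood at 4.92, 5.44 and 3.76 CPM in Ctrl and at 3.28, 2.85 and 3.25 in PT-KO. After I/R the Ctrl+I/R libraries stood at 14.1, 11.4 and 8.21 and the PT-KO+I/R libraries at 13.7, 16.9 and 14.4. Every PT-KO library was below every Ctrl library, whereas the injured groups overlapped. It rose 2.40-fold after I/R in Ctrl (log2 1.27 ± 0.25 SE, adjusted p = 0.019) and 4.78-fold in PT-KO (log2 2.26 ± 0.17, adjusted p = 1.7e-06). The difference between these 2 changes, tested as the knockout by I/R interaction on all 12 libraries, was 1.01 ± 0.29 on the log2 scale (adjusted p = 0.0223). The lower level in PT-KO than in Ctrl (log2 -0.59 ± 0.21, adjusted p = 0.25) and the higher level in the injured knockout (PT-KO+I/R) than in the injured control (log2 0.41 ± 0.21, adjusted p = 0.138) were not called.

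*Nfkbia* (chr12:55489410-55492647, minus strand) encodes IκBα, the inhibitor that holds NF-κB in the cytoplasm and is itself made when NF-κB is active. It stood at 19.7, 17.1 and 18.7 CPM in Ctrl, 27.9, 21.9 and 24.1 in PT-KO and 24.8, 23.1 and 23.4 in Ctrl+I/R. In PT-KO+I/R it stood at 43.2, 43.9 and 47.4, and these 3 libraries were above the other 9. PT-KO+I/R was 1.88-fold higher than Ctrl+I/R (log2 0.91 ± 0.10 SE, adjusted p = 0.000474), and this call held without each of the 6 libraries and with library totals (log2 0.70, adjusted p = 0.000995). The rise after I/R was 1.29-fold in Ctrl (log2 0.37 ± 0.10, adjusted p = 0.0477) and 1.81-fold in PT-KO (log2 0.86 ± 0.11, adjusted p = 8.59e-05). The call in Ctrl was lost without any one of its 6 libraries. The interaction was 0.50 ± 0.14 on the log2 scale (adjusted p = 0.0216). Without injury all PT-KO libraries were above all Ctrl libraries, but the difference was not called (log2 0.41 ± 0.12, adjusted p = 0.207).

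*Nfkbiz* (chr16:55811375-55838899, minus strand) encodes IκBζ, a nuclear member of the IκB family that helps NF-κB switch on a part of its targets. Its fitted fold change after I/R was the largest of the genes tested in both genotypes. It stood at 13.1, 12.9 and 5.81 CPM in Ctrl and 9.52, 7.26 and 10.1 in PT-KO. After I/R the Ctrl+I/R libraries stood at 52.9, 79.0 and 20.1 and the PT-KO+I/R libraries at 49.3, 60.6 and 77.3. All injured libraries were above all uninjured ones, while the injured groups overlapped widely. The rise was 4.80-fold in Ctrl (log2 2.26 ± 0.50 SE, adjusted p = 0.0259) and 6.97-fold in PT-KO (log2 2.80 ± 0.19, adjusted p = 9.21e-07), and the injured knockout against the injured control gave a log2 fold change of 0.30 ± 0.41 (adjusted p = 0.575).

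*Tnfaip3* (chr10:19000910-19015657, minus strand) encodes A20, an enzyme that edits ubiquitin chains and shuts off signalling from TNFR1. It stood at 5.72, 6.17 and 5.37 CPM in Ctrl and 5.29, 5.70 and 6.25 in PT-KO. After I/R the Ctrl+I/R libraries stood at 9.90, 11.8 and 8.28 and the PT-KO+I/R libraries at 11.1, 14.9 and 15.4. The uninjured groups overlapped, and only PT-KO+I/R 2 fell inside the range of Ctrl+I/R. It rose 1.75-fold after I/R in Ctrl (log2 0.80 ± 0.18 SE, adjusted p = 0.0261) and 2.40-fold in PT-KO (log2 1.26 ± 0.17, adjusted p = 0.000117). The difference between the injured groups was not called (log2 0.46 ± 0.19, adjusted p = 0.0773), although it was in the fits without Ctrl+I/R 2 and without PT-KO+I/R 2.

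**Figure D1:**
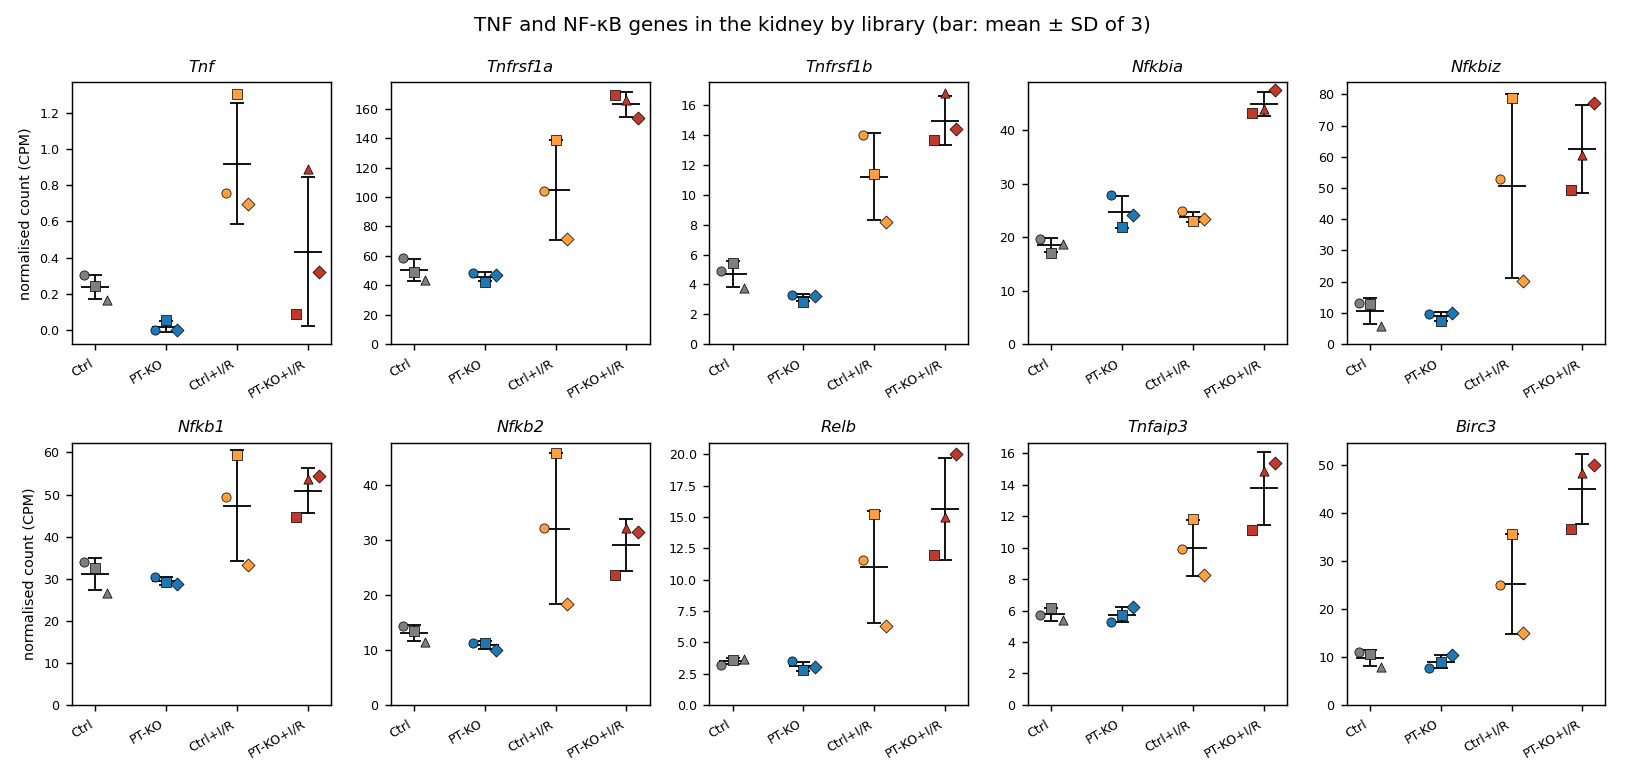
Normalised count (CPM, y axis) of each of the 10 genes in every library by group (x axis). Points are libraries, with the shape standing for the replicate number (circle 1, square 2, triangle 3, diamond 4; for Ctrl 3 the number in its column name), and bars are mean ± SD of 3. The *Nfkbia* libraries of PT-KO+I/R sit between 43.2 and 47.4, above the other 9 libraries.

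The Rel family is represented by 3 genes. *Nfkb1* (chr3:135584655-135691547, minus strand), the source of the p50 subunit, stood at 34.0, 32.6 and 26.7 CPM in Ctrl, 30.4, 29.3 and 28.6 in PT-KO, 49.5, 59.4 and 33.2 in Ctrl+I/R, then 44.7, 53.6 and 54.5 in PT-KO+I/R. After I/R in Ctrl the gene was not called (log2 0.61 ± 0.21 SE, adjusted p = 0.0738), and Ctrl+I/R 4 fell within the Ctrl range. It was called without Ctrl+I/R 4 (log2 0.81, adjusted p = 0.0108) and by DESeq2 (adjusted p = 0.0408). It was also called without the filter (0.0379) and in a fit to all 12 libraries (0.0208). A replicate block called it too (adjusted p = 0.0204), but there Ctrl 3 and Ctrl+I/R 4 each stand alone in a block. That fit therefore compares only the libraries numbered 1 and 2. In PT-KO *Nfkb1* rose 1.73-fold (log2 0.79 ± 0.10, adjusted p = 8.23e-05). Its annotation overlaps that of Gm43430 on the same strand, so that the counts of the 2 cannot be fully told apart.

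*Nfkb2* (chr19:46304320-46312385, plus strand), the source of the p52 subunit of the slower non-canonical arm, stood at 14.3, 13.5 and 11.4 CPM in Ctrl, 11.3, 11.3 and 9.99 in PT-KO, 32.1, 45.8 and 18.3 in Ctrl+I/R, then 23.6, 32.3 and 31.4 in PT-KO+I/R. It rose 2.47-fold after I/R in Ctrl (log2 1.31 ± 0.30 SE, adjusted p = 0.0275) and 2.68-fold in PT-KO (log2 1.42 ± 0.14, adjusted p = 1.63e-05). The injured groups overlapped, with a log2 fold change of -0.14 ± 0.29 (adjusted p = 0.714). The gene overlaps *Psd* and AC114539.1 on the other strand, and the strand setting of the counting is not given in the sources used here. No gene overlaps the annotation of the other 8.

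*Relb* (chr7:19606217-19629438, minus strand), the partner of p52, stood at 3.21, 3.54 and 3.65 CPM in Ctrl, 3.47, 2.74 and 3.003 in PT-KO, 11.6, 15.2 and 6.32 in Ctrl+I/R, then 11.96, 15.0 and 20.0 in PT-KO+I/R. Every injured library was above every uninjured one. It rose 3.19-fold after I/R in Ctrl (log2 1.68 ± 0.31 SE, adjusted p = 0.0172) and 5.09-fold in PT-KO (log2 2.35 ± 0.22, adjusted p = 9.15e-06). The injured groups overlapped and their difference was not called (log2 0.50 ± 0.31, adjusted p = 0.22).

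*Birc3* (chr9:7848699-7873186, minus strand) encodes cIAP2, a ubiquitin ligase of the TNFR1 complex that favours survival. It stood at 10.9, 10.6 and 7.86 CPM in Ctrl, 7.63, 8.98 and 10.4 in PT-KO, 25.0, 35.6 and 14.9 in Ctrl+I/R, then 36.6, 48.4 and 50.04 in PT-KO+I/R. The lowest PT-KO+I/R library was just above the highest Ctrl+I/R library. It rose 2.58-fold after I/R in Ctrl (log2 1.37 ± 0.30 SE, adjusted p = 0.0252) and 4.98-fold in PT-KO (log2 2.32 ± 0.16, adjusted p = 1.16e-06). PT-KO+I/R was 1.78-fold higher than Ctrl+I/R (log2 0.83 ± 0.28, adjusted p = 0.039), a call that was lost without Ctrl+I/R 1, PT-KO+I/R 3 or PT-KO+I/R 4 and with library totals (log2 0.62, adjusted p = 0.109).

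The first comparison, Ctrl+I/R against Ctrl, asks what injury does in control kidneys. Of the 9 genes other than *Tnf* 8 rose and none fell, where 11.4% of 15567 genes tested rose and 7.97% fell, and the groups did not overlap for 8, where 43.7% of all genes did not overlap. The median log2 fold change of the 9 was 1.27, against -0.01 for all genes tested. With 3 libraries against 3, the smallest p of a two-sided exact permutation test of a single gene is 0.1, which is the value each of the 8 genes gave. With library totals in place of TMM factors the median of all genes was 0.11, that of the 9 was 1.37, and 15.1% of genes rose and 4.92% fell. Calls depended on single libraries, for these genes and for all genes alike. Without Ctrl 1, Ctrl 2 or Ctrl+I/R 1 none of the 9 was called, and 2.02%, 2.12% and 3.9% of all genes were called higher, while the log2 fold change of *Nfkbiz*, for example, was 2.45, 2.44 and 2.22 in these fits. Without Ctrl 3 the count was 2 (8.48% of all genes), without Ctrl+I/R 2 it was 5 (6.3%) and without Ctrl+I/R 4 it was 8 (14.2%). The fit without the 2 Ctrl libraries with *Xist* leaves 1 library in Ctrl, which is assumed to vary like those of the other groups. It called 4 of the 9 (*Tnfrsf1a*, *Tnfrsf1b*, *Nfkbiz* and *Birc3*) and 4.76% of all genes as higher, with log2 fold changes of 1.25, 1.58, 3.12 and 1.68. Those of the other genes were 0.83 for *Nfkb1*, 1.499 for *Nfkb2*, 1.59 for *Relb*, 0.90 for *Tnfaip3* and 0.35 for *Nfkbia*.

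The second comparison, PT-KO+I/R against PT-KO, asks the same in knockout kidneys. All 9 genes tested rose, where 32.9% of 15155 genes tested rose and 32.7% fell, with a median log2 fold change of 1.82 against 0.01 for all genes tested. The 9 calls held when each of the 6 libraries was left out in turn. The fitted changes ran from 0.79 for *Nfkb1* to 2.80 for *Nfkbiz*.

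**Figure D2:**
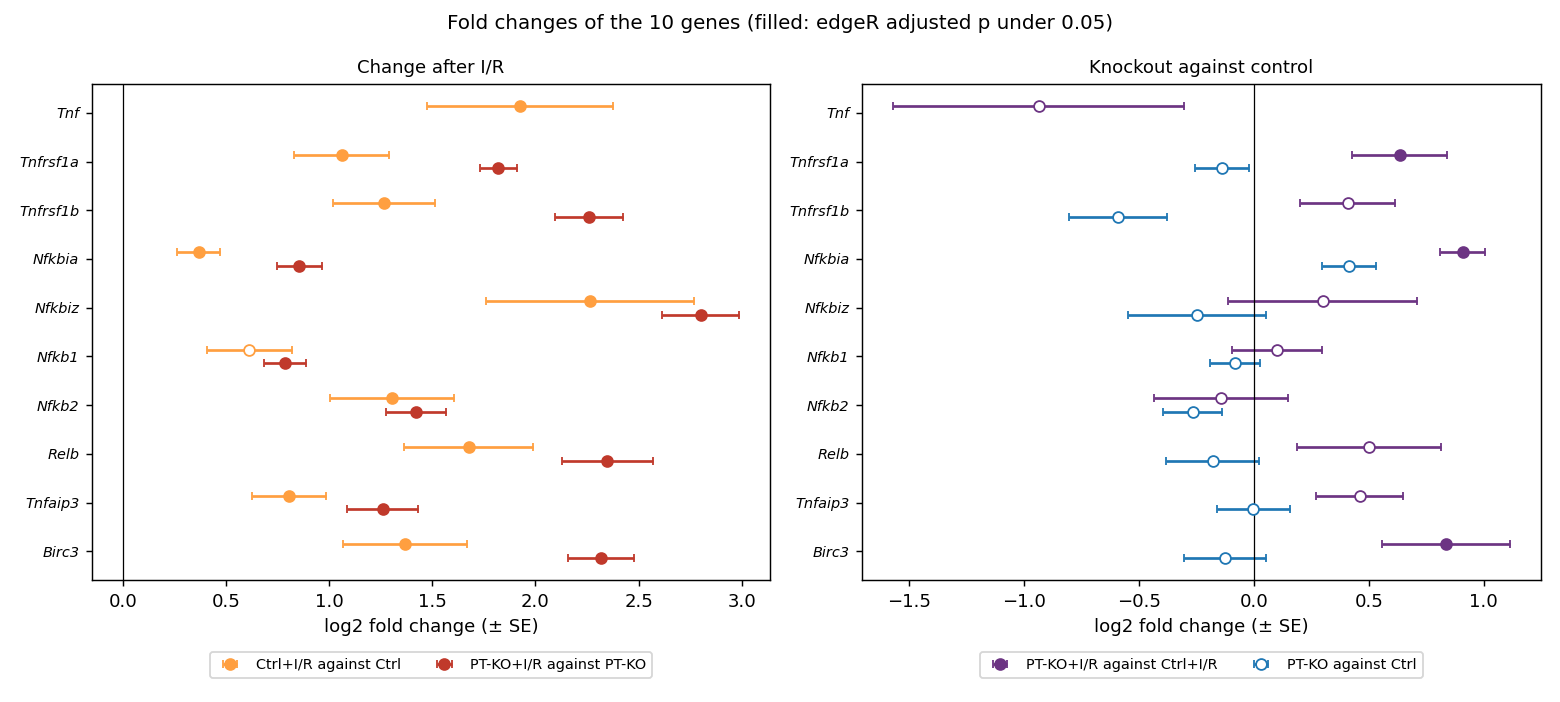
Fitted log2 fold change ± SE (x axis) of each gene (y axis) in 4 comparisons, filled where edgeR's adjusted p was under 0.05. The change after I/R in PT-KO lies to the right of that in Ctrl for all 9 genes with both values, a difference that was called for 3 of them. *Tnf* passed the filter through its Ctrl+I/R libraries in both comparisons that show it, and *Nfkbia* is highest of the 10 between the injured groups, at 0.91.

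Whether the knockout changed the response was read from the injured groups and from the interaction. In PT-KO+I/R relative to Ctrl+I/R 3 of the 9 genes other than *Tnf* rose (*Nfkbia*, *Birc3* and *Tnfrsf1a*) and none fell, where 22.5% of 15281 genes tested rose and 24.4% fell, so that the share of the 9 was near the share of all genes. The median log2 fold change of the 9 was 0.46, against -0.0049 for all genes tested. With library totals the median of all genes was -0.21, that of the 9 was 0.25, 12.9% of genes rose and 33.2% fell, and 1 of the 9, *Nfkbia*, was called. In the interaction, 3 of the 9 were called higher (*Tnfrsf1a*, *Tnfrsf1b* and *Nfkbia*), where 14.3% of 16168 genes tested were higher and 16.4% lower. The *Tnfrsf1a* interaction was 0.77 ± 0.27 (SE, log2, adjusted p = 0.0457) and was called in 2 of 12 fits that left out a library, those without Ctrl 3 and without Ctrl+I/R 2. The call of *Tnfrsf1b* was lost without Ctrl 2, PT-KO 2 or PT-KO+I/R 3, and that of *Nfkbia* without Ctrl 1, PT-KO 2, PT-KO 4 or PT-KO+I/R 4. With library totals 9.84% of genes were higher and 18.5% lower, and *Tnfrsf1b* alone of the 9 was called (adjusted p = 0.0477). Without the 2 Ctrl libraries with *Xist*, which again leaves 1 Ctrl library, none of the 9 was called and 7.37% of all genes were called higher, with values of 0.56, 0.68 and 0.51 for *Tnfrsf1a*, *Tnfrsf1b* and *Nfkbia*. The comparisons of PT-KO+I/R with the injured controls and with PT-KO share the PT-KO+I/R libraries, and the interaction uses all of them.

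PT-KO against Ctrl asks what the knockout does without injury. None of the 9 genes tested was called by edgeR, where 0% of 15291 genes tested were called, and DESeq2 called none of them either. Unadjusted p was under 0.05 for 2 of the 9, *Tnfrsf1b* and *Nfkbia*, in opposite directions, where 16.8% of all genes had such a p. DESeq2 called 3.25% of the genes it tested. The groups did not overlap for 3 of the 9 (*Tnfrsf1b*, *Nfkbia* and *Nfkb2*), where 21% of all genes did not overlap.

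Levels can be compared between genes only per length, and are given here as CPM per kb of exon. *Tnfrsf1a* led in every group, from 17.7 ± 1.21 (SD, n = 3) in PT-KO to 62.9 ± 3.24 in PT-KO+I/R, and *Nfkbia* was next, from 11.49 ± 0.82 in Ctrl to 27.9 ± 1.39 in PT-KO+I/R. In PT-KO the ranges of mean ± SD of these 2 overlapped, at 17.7 ± 1.21 and 15.3 ± 1.88. In Ctrl, *Nfkb2*, *Nfkb1*, *Nfkbiz* and *Birc3* followed at 2.84 ± 0.33, 2.58 ± 0.32, 2.11 ± 0.82 and 1.96 ± 0.34, and neighbours in this order did not differ beyond their SD. *Tnfrsf1b*, *Relb* and *Tnfaip3* lay at 1.23 ± 0.22, 0.89 ± 0.06 and 0.80 ± 0.06, the last 2 with overlapping ranges, and *Tnf* was last of all at 0.14 ± 0.04. In Ctrl+I/R *Nfkbiz* moved up to 10.1 ± 5.88, a range that overlapped that of *Nfkbia* at 14.8 ± 0.57. In PT-KO+I/R *Nfkbiz* at 12.4 ± 2.81 and *Birc3* at 8.99 ± 1.47 ranked after *Nfkbia*, and their ranges of mean ± SD overlapped.

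The genes with the profile most like those of 9 of the 10 were found over the 12 libraries by the root mean square difference of log2 CPM, each centred on its own mean. For *Tnfrsf1a* they were *Igf2bp2* (0.10) and *Zyx* (0.13), where the median of all genes was 0.84. For *Nfkbia* they were *Faim* (0.11) and *Tfpt* (0.11). For *Nfkb1* they were *Tnip1* (0.11) and *Fam13b* (0.12), for *Relb* *Msn* (0.15) and *Sbno2* (0.18), and for *Birc3* *Rtn4* and *Myl12a* (0.17 each). For *Tnfrsf1b* they were *Pros1* (0.18) and *Il1r1* (0.19), for *Nfkb2* *Sox4* (0.17) and *Ajuba* (0.18), for *Nfkbiz* *Krt18* (0.25) and *Osmr* (0.27) and for *Tnf* *Trpv5* (0.24) and *Snai1* (0.25).

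The rest of the pathway was read from 4 lists, which were chosen with results of these data known, and each count is to be read beside the shares of all genes. In PT-KO+I/R relative to Ctrl+I/R these were 22.5% higher and 24.4% lower, after I/R in Ctrl 11.4% and 7.97%, and after I/R in PT-KO 32.9% and 32.7%. Genes with a library under the filter's cutoff (0.56 to 0.59 CPM), which would not have passed through that group alone, are set aside from the counts. Some of them are given by their reads, and the rest are not listed. Of 22 genes listed with the TNF receptor complex, not all of them parts of it, 12 rose and 4 fell in the injured knockout relative to Ctrl+I/R. Their median log2 fold change was 0.30, or 0.093 with library totals. The adaptor ligase *Traf6* (log2 1.17 ± 0.10 SE, adjusted p = 0.000228), the initiator caspase *Casp8* (0.94) and the linear-chain deubiquitinase *Otulin* (0.88) rose, and *Traf1* (-1.43), *Fadd* (-0.78) and *Adam17* (-0.58), the protease that sheds TNF, fell. After I/R in Ctrl, 1 of the 22, *Casp8*, rose (log2 0.70) and none fell, and that call was lost without Ctrl 1, Ctrl 2 or Ctrl+I/R 1. In PT-KO 12 rose and 4 fell, and calls among all genes were also more frequent there. *Casp8* (1.28), *Traf6* (0.995) and the kinase adaptor *Tab2* (0.92) rose, and *Fadd* (-0.63), *Rbck1* (-0.54), a subunit of the linear ubiquitin ligase, and *Tab1* (-0.49) fell, the *Tab1* call being lost without PT-KO 2 or PT-KO+I/R 4.

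Of 10 genes of IKK, IκB and the remaining Rel proteins, 3 rose and 1 fell in PT-KO+I/R relative to Ctrl+I/R, where the share that rose was near that of all genes, and the median log2 fold change was 0.18, or -0.026 with library totals. *Nfkbib* (IκBβ, log2 1.08 ± 0.13 SE, adjusted p = 0.000623), *Rela*, the p65 subunit (0.96), and *Ikbkg*, the regulatory IKK subunit NEMO (0.83), rose, and *Nfkbie* (-0.89), which encodes IκBε, fell. The *Nfkbie* call stood only in the fit without Ctrl+I/R 4, of the 6 that left out a library. After I/R *Nfkbid*, a nuclear IκB, was set aside in both genotypes, with 10, 14 and 4 counts in Ctrl against 49, 28 and 12 in Ctrl+I/R, and 6, 3 and 7 in PT-KO against 11, 39 and 12 in PT-KO+I/R. Of the other 9, 3 rose in Ctrl and none fell, led by *Bcl3* (log2 3.23 ± 0.43 SE, adjusted p = 0.00745), with the kinase *Map3k14* (NIK, 1.004) and the subunit *Rel* (0.90). *Bcl3* alone was called without Ctrl 1, Ctrl 2, Ctrl 3 or Ctrl+I/R 1, and the *Rel* call was lost without Ctrl+I/R 2 as well. In PT-KO 7 of the 9 rose and none fell, with *Bcl3* at 2.20 and *Rela* at 1.52. *Bcl3*, an IκB-like partner of p50 and p52, was at 19.6, 36.1 and 10.8 CPM in Ctrl+I/R, and the PT-KO+I/R libraries overlapped these at 8.80, 15.7 and 11.3.

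Of 24 NF-κB target genes, 20 were tested after I/R in each genotype, and 7 were set aside in each. Among those were genes that were nearly silent without injury. The chemokine *Cxcl1* had 15, 23 and 10 counts in Ctrl against 1723, 1574 and 292 in Ctrl+I/R. *Lif*, a cytokine of the IL-6 family, had 6, 14 and 9 against 358, 727 and 71, and *Ccl20* 1, 0 and 0 against 99, 125 and 26. The cytokine *Il6* had 45, 101 and 8 counts in Ctrl+I/R against 0, 0 and 1 in Ctrl, and 41, 292 and 207 in PT-KO+I/R against 0 in each PT-KO library, at least 55.8-fold higher against a floor of 3 counts per library. In all of these the injured libraries were above the uninjured ones.

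Of the other 13 targets 4 rose after I/R in Ctrl and 1 fell, and in PT-KO 11 of 13 rose and 1 fell. The one that fell was *Sod2*, a mitochondrial antioxidant enzyme, in both (-0.83 in Ctrl and -1.26 in PT-KO), and its call in Ctrl was lost without any one Ctrl library or Ctrl+I/R 1. Between the injured groups 17 of 21 tested were left, of which 4 were higher in PT-KO+I/R and 5 lower, shares near those of all genes. *Ptgs2* (cyclooxygenase 2, log2 2.88 ± 0.68 SE, adjusted p = 0.0105), the neutrophil chemokine *Cxcl2* (2.14) and *Ier3* (1.15) were higher, and the monocyte chemokine *Ccl2* (-2.19) was lower. The *Ptgs2* call held without each of the 6 libraries, at log2 2.41 to 3.81. The *Ier3* call stood only without Ctrl+I/R 2 or PT-KO+I/R 2, and that of *Cxcl2* was lost without Ctrl+I/R 1, PT-KO+I/R 3 or PT-KO+I/R 4. *Cd83*, which was set aside, had 44, 38 and 20 counts in Ctrl+I/R against 7, 15 and 8 in the injured knockout.

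Of 24 genes of the TNF superfamily 17 were tested in PT-KO+I/R relative to Ctrl+I/R, and of the 13 left 2 rose and 3 fell, near or under the shares of all genes. The receptor *Tnfrsf12a* (Fn14) rose by log2 1.57 ± 0.36 (SE, adjusted p = 0.00877), and the death ligand *Tnfsf10* (TRAIL) fell by 2.79 on the log2 scale (adjusted p = 0.000452). The receptor *Ltbr*, which feeds the non-canonical arm, rose by 0.45 on the log2 scale, a call that was lost without Ctrl+I/R 1. *Ltb*, a lymphocyte cytokine, was set aside, with 35, 34 and 11 counts in Ctrl+I/R against 0, 2 and 4 in the injured knockout, and so was *Tnfrsf25*, with 32, 26 and 23 against 8, 8 and 5. After I/R in Ctrl 3 of the 12 left rose and 2 fell, with *Tnfrsf12a* at 3.60, *Tnfsf10* at -0.72 and *Tnfrsf21* at -0.61. *Tnfrsf12a* was called without each of the 6 libraries, whereas *Tnfrsf21* was called only without Ctrl+I/R 4 and *Tnfsf10* only without Ctrl+I/R 2. *Eda2r* had 17, 20 and 9 counts in Ctrl against 53, 66 and 30 in Ctrl+I/R, and *Relt* 6, 7 and 8 against 24, 26 and 15. In PT-KO 4 of the 10 left rose and 3 fell. *Tnfrsf12a* (5.09) and the death receptor *Tnfrsf10b* (1.72) rose, and *Tnfsf10* (-4.10), *Tnfrsf11a* (RANK, -0.79) and *Tnfrsf21* (-0.70) fell, the *Tnfrsf11a* call being lost without PT-KO 2 or PT-KO+I/R 4.

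**Figure D3:**
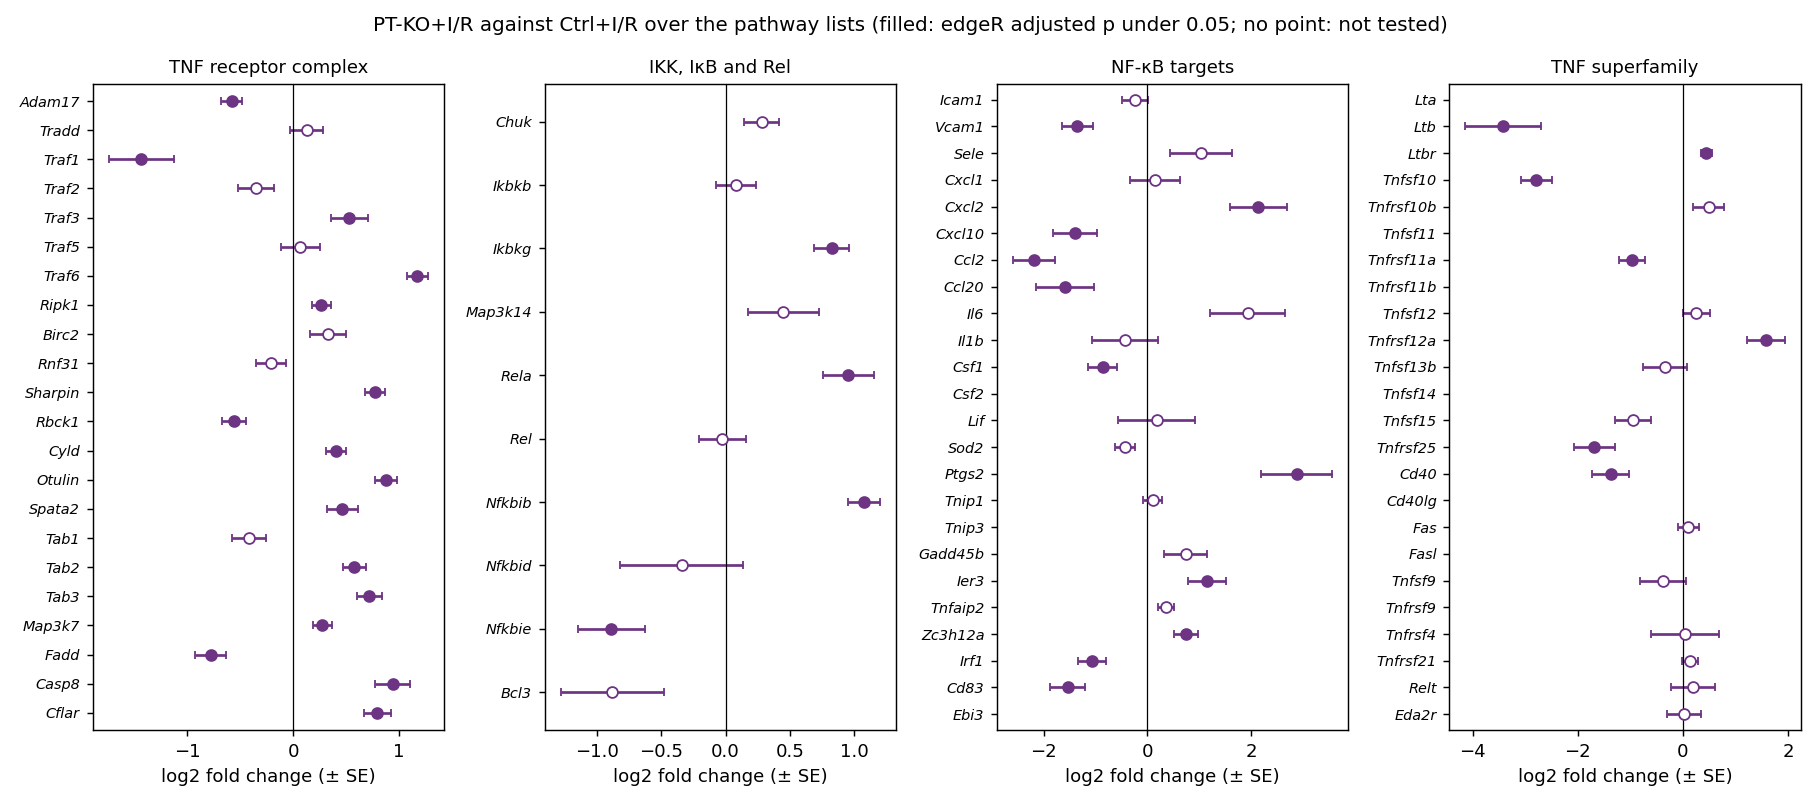
Fitted log2 fold change ± SE (x axis) of PT-KO+I/R relative to Ctrl+I/R for each gene (y axis) of the 4 lists, filled where edgeR's adjusted p was under 0.05. On the receptor complex list 12 genes lie higher and 4 lower as called. Among the 17 targets with every library above the filter's cutoff 4 are higher and 5 lower, beside 22.5% and 24.4% of all genes.

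Markers of other cell types moved with the injured groups, and their part in these results was not tested. The summed level of 7 neutrophil markers was 1.46 to 2.33 CPM in Ctrl, 9.79 to 43.0 in Ctrl+I/R, and reached 56.6 to 88.4 in PT-KO+I/R. Of the 5 that passed the filter in both injured groups, 3 rose in PT-KO+I/R relative to Ctrl+I/R, and *Ly6g* had no more than 3 counts in any library. The sum of 9 macrophage and monocyte markers was 137 to 216 CPM in Ctrl+I/R against 155 to 258 in PT-KO+I/R. There *Cd14* and *Cd68* rose and 4 others fell, of 7 that passed the filter in both. *Cd14* alone stood at 100, 194 and 142 CPM in PT-KO+I/R against 29.7, 31.6 and 11.05 in Ctrl+I/R, so the PT-KO+I/R sum is largely that gene. *Adgre1* had 6, 10 and 3 counts and *Cx3cr1* 0, 9 and 2 counts in PT-KO+I/R, against 224, 112 and 128 and 371, 171 and 161 in Ctrl+I/R. The T cell sum was 5.31 to 15.1 CPM in Ctrl+I/R against 0.36 to 0.77 in the injured knockout, with *Cd2* at 0 in all 3 libraries, and the sum of 4 B cell markers was 0 to 0.36 CPM there. Between the injured groups 2 of the 6 T cell markers passed the filter, both through Ctrl+I/R only, and no B cell marker passed it. In the same comparison 4 of 6 endothelial markers rose and 1 fell, and 2 of 6 distal nephron markers fell and none rose. The sum of 8 proximal tubule markers, the cells that Ggt1-Cre targets, was 14610 to 15230 CPM in Ctrl, 3737 to 9046 in Ctrl+I/R, with 2401 to 3117 in the injured knockout, and 5 of the 8 fell between the injured groups.

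**Figure D4:**
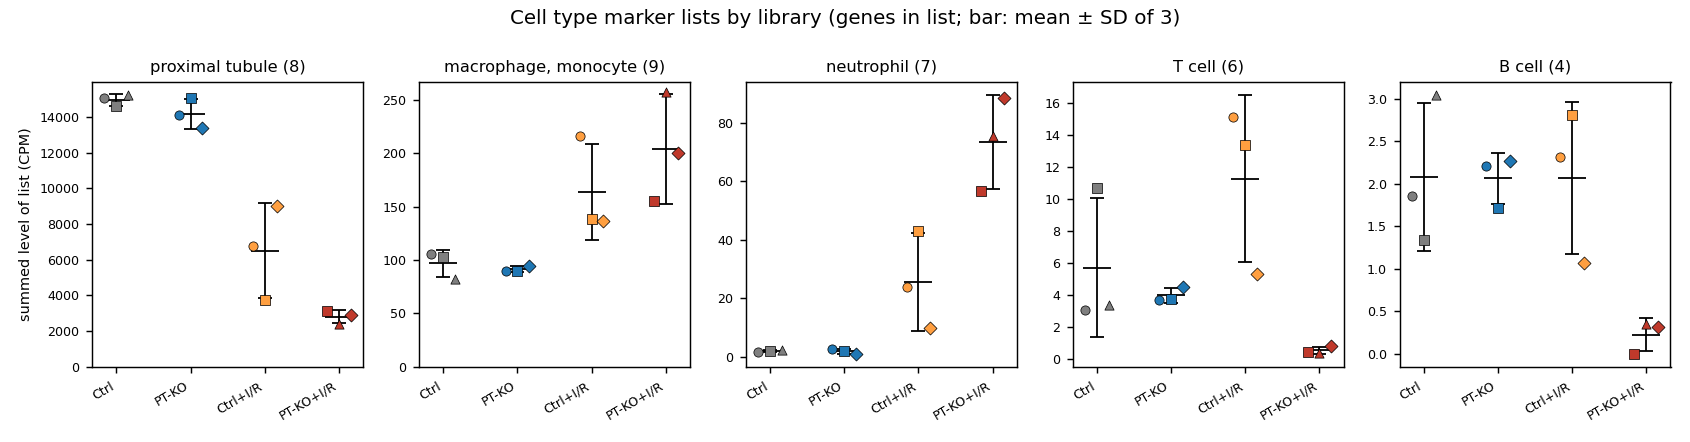
Summed level of cell type marker genes (CPM, y axis) in each library by group (x axis), with the number of genes in each list in the panel title. Points are libraries with shapes as replicate numbers, and bars are mean ± SD of 3. The PT-KO+I/R libraries sit highest in the neutrophil panel, from 56.6 to 88.4, and lowest in the T cell and B cell panels.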

How the data were processed

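The authors deposited 1 table of raw read counts per Ensembl gene for the 12 libraries. The submitters' processing notes name HISAT2 2.0.4 and the genome build mm10, and the count program, annotation and strand setting are not given in the sources used here. Labels name both an RNeasy kit and TRIzol for RNA extraction. Gene symbols, exon lengths and positions came from GENCODE M21 (GRCm38), which named 55227 of 55487 identifiers.

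Counts were filtered with filterByExpr, scaled with TMM factors and tested with edgeR 4.0.16 (quasi-likelihood F test) in R 4.3.3, with the 6 libraries compared in each fit and all 12 in the interaction. Calls used a Benjamini-Hochberg adjusted p under 0.05 over all genes tested. CPM values are TMM-scaled over 12 libraries, and profiles were compared with 0.5 CPM added. Of the alternatives, DESeq2 was version 1.42.0, and the others were library totals, no filter, at least 10 counts in every library, a replicate block, a fit to all 12 libraries, a fit without the 2 Ctrl libraries with *Xist*, and leaving out each library. Scripts were tested on simulated data. No 2 libraries of a group agreed within counting error, so each was counted as 1 sample.

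The 10 genes, the lists and the cell type markers were chosen with earlier results of these data known. Named were all 10 genes, per list and comparison up to 3 called genes in each direction with the largest fold change, the 2 genes most like each of the 10, and check genes. Some genes that were set aside are not given for every comparison, among them *Cd83*, *Cxcl2*, *Lif* and *Relt* after I/R in PT-KO. The genes most like *Tnfaip3* are not reported here. *Bcl3* and *Il6* levels and marker genes were named after their values were seen. The κB consensus was chosen after matches to a looser form of the motif had been seen, and the matches differ between the forms: *Birc3* had one to the looser form only.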

Additional observations from a re-analysis of the deposited data

Results flagged for a closer look

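For 3 of the 10 genes the change after I/R differed between the genotypes in the interaction test of edgeR, with an adjusted p under 0.05, where 14.3% of all genes tested were called higher and 16.4% lower. The change in PT-KO exceeded that in Ctrl by 0.77 for *Tnfrsf1a*, by 1.01 for *Tnfrsf1b* and by 0.50 for *Nfkbia* on the log2 scale. The *Tnfrsf1a* call held in 2 of 12 fits that left out a library, and with library totals 1 of the 3, *Tnfrsf1b*, was called. Without the 2 Ctrl libraries with *Xist* these differences were 0.56, 0.68 and 0.51, and none was called, in a fit with 1 Ctrl library that is assumed to vary like those of the other groups.

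The same test was read over every gene tested, with none set aside for a library under the filter's cutoff. It called 7 genes higher and 3 lower of 22 listed with the receptor complex, and 3 higher of 10 IKK, IκB and Rel genes. It called 1 higher and 1 lower of 21 targets, and 2 higher and 2 lower of 19 of the TNF superfamily. The 15 with the largest differences by list are named. On the receptor complex list the difference was 1.07 for *Traf6*, 0.75 for *Cflar* and 0.72 for *Otulin*, and -0.77 for *Fadd*, -0.41 for *Rbck1* and -0.38 for *Adam17*. Among IKK, IκB and Rel genes it was 1.10 for *Nfkbib*, 0.92 for *Rela* and 0.81 for *Ikbkg*. Among the targets it was 0.74 for *Tnfaip2* and -2.20 for *Cd83*. The *Cd83* value is a description: with 7, 15 and 8 counts in PT-KO+I/R, the gene was set aside in the comparisons with that group. In the TNF superfamily the difference was 1.501 for *Tnfrsf12a*, 0.46 for *Ltbr*, -1.35 for *Tnfrsf11a* and -3.35 for *Tnfsf10*. Of 12 fits that each left out a library, *Adam17* was called in 1 (without PT-KO 2), *Ltbr* in 3 (without Ctrl 2, Ctrl+I/R 2 or PT-KO 1), *Rbck1* in 4 (without Ctrl 3, Ctrl+I/R 1, Ctrl+I/R 2 or PT-KO+I/R 3), *Tnfrsf11a* in 6 and *Tnfrsf12a* in 7, and the other 10 named genes in all 12. The call of *Tnfrsf11a* was lost without Ctrl 1, Ctrl 2, Ctrl+I/R 1, Ctrl+I/R 4, PT-KO 2 or PT-KO+I/R 4, and that of *Tnfrsf12a* without Ctrl 1, Ctrl+I/R 1, PT-KO 1, PT-KO 4 or PT-KO+I/R 4.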

How the results depend on the processing

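Of 652 values of single genes under the alternatives, 540 kept their direction and their side of the threshold, 83 kept the direction and lost the call, 11 gained one and 18 changed sign. Calls among the 10 genes in Ctrl+I/R against Ctrl numbered 9 with *Tnf* and 8 without it. With *Tnf* they ranged from 0 to 9 without 1 library and fell to 4 without the 2 Ctrl libraries with *Xist*, a fit that leaves 1 library in Ctrl. In PT-KO+I/R relative to Ctrl+I/R they numbered 3, 1 with library totals and 1 to 4 without 1 library. In the interaction they numbered 3, 1 with library totals, 0 without the *Xist* libraries and 0 to 4 without 1 library. In PT-KO+I/R against PT-KO they stayed at 9 without any 1 library. Without the filter *Tnf*, with 0, 1 and 0 counts in PT-KO, was called as well. Of all genes, 11.4% were called higher in Ctrl+I/R against Ctrl, and 2.02% to 14.2% without 1 library. In PT-KO+I/R against PT-KO 32.9% were higher and 32.7% lower. Between the injured groups 22.5% were higher and 24.4% lower, or 12.9% and 33.2% with library totals. In the interaction 14.3% were higher and 16.4% lower, or 9.84% and 18.5% with library totals.

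Signs changed only for values that were not called. In PT-KO+I/R relative to Ctrl+I/R, *Nfkb1* was -0.11 with library totals and ran from -0.10 (without Ctrl+I/R 4) to 0.28 without 1 library, *Nfkbiz* from -0.085 (without Ctrl+I/R 4) to 0.75 and *Nfkb2* from -0.43 to 0.19 (without Ctrl+I/R 2). In PT-KO against Ctrl, *Tnfaip3* was 0.0089 with DESeq2 and ran from -0.068 to 0.057 without 1 library, above 0 without Ctrl 2, PT-KO 1 or PT-KO 2. Without the *Xist* libraries *Tnfrsf1a* was 0.065, *Nfkbiz* 0.62, *Nfkb1* 0.14, *Tnfaip3* 0.097 and *Birc3* 0.20 there, and in the interaction *Nfkbiz* was -0.33, *Nfkb1* -0.044 and *Nfkb2* -0.084. Without 1 library the interaction of *Nfkb1* ran from -0.018 to 0.37 and of *Nfkb2* from -0.16 to 0.46, the lowest of both without Ctrl+I/R 4. The cause was not tested.

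Over all genes, 3019 were called in Ctrl+I/R against Ctrl, 4938 in a fit to 12 libraries, 1381 without the *Xist* libraries and 379 to 4061 without 1 library. In PT-KO against Ctrl 0 were called by edgeR, 458 by DESeq2, 388 without the filter, 1 with library totals and 0 to 1930 without 1 library, the highest without Ctrl 3. In the interaction 4953 were called and 2730 without the *Xist* libraries. No pairing by replicate number was seen: the median correlation was -0.026 over the 12 same-numbered pairs, and 1 of them was over 0.1. Over the 42 other pairs between groups it was 0.0042, and 5 were over 0.1. These are deviations from means of 3 libraries, so they do not exclude a pairing. Ctrl 3, whose number matches no title, entered no same-numbered pair and was a block of its own. With a replicate block, 1 of the 10 genes was called in PT-KO+I/R relative to Ctrl+I/R, and 1683 genes in place of 7169. There Ctrl+I/R 1 and PT-KO+I/R 3 each stand alone in a block, so that fit compares only the same-numbered libraries of these groups. The block called 1378 genes in PT-KO against Ctrl, where Ctrl 3 and the PT-KO library whose number no Ctrl library has stand alone. In the interaction it called 3215 genes. These counts cannot separate the effect of the block from that of the libraries lost to it.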
